A study of Saccharomyces cerevisiae with 14 samples.

Results

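The deposited expression table of a budding yeast RNA labelling study lists 402 features under the biotype anti-sense, each called Unit and a number. All 402 were taken, with none lost as a repeated entry, out of 12449 features left after fully repeated entries were removed. By its biotype, a unit stands for a transcript read from the strand opposite to a gene. Against that label, the counts of 101 units followed those of the protein-coding open reading frame (ORF) across from them almost read for read in all 14 libraries, as set out below. The name antisense unit is therefore used here for what the table lists, and not as a statement of which strand the counted reads came from.

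The study fed growing Saccharomyces cerevisiae cells 4-thiouracil (4tU), a uracil analogue that enters new RNA, for very short times and then pulled the thiolated RNA out on streptavidin beads after biotinylation. Labelled RNA was taken after 1.5, 2.5 and 5 min of 500 µM 4tU, in 3 timecourses, giving 3 libraries per time. Each timecourse also gave 1 library of ribosomal RNA (rRNA) depleted total RNA, which stands for the steady state, and 2 label-free libraries of cells without labelling stand for the bead background. All groups shared the strain W303U, of mating type MATa, carrying ade2-1 and his3-11, 15 as well as trp 1-1, and further leu2-3, 112 and can1-100. Cultures of 600 ml were grown at 30 °C in SD medium lacking uracil and leucine to an OD600 of 0.8, and 2 mg of RNA went into each biotinylation. No other label than the timecourse number says that the libraries came from separate cultures, so p-values here measure only the spread between these samples.

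Antisense transcription in yeast often starts from the nucleosome-depleted region at the 3′ end of a gene or from a divergent promoter of its neighbour. Many such RNAs are removed quickly by the nuclear exosome or by the cytoplasmic exonuclease Xrn1, and for that reason cryptic unstable transcripts (CUTs), stable unannotated transcripts (SUTs) and Xrn1-sensitive unstable transcripts (XUTs) are catalogued as separate classes. After very short labelling, RNA that is made and lost fast takes a larger part of the labelled pool than of total RNA, and long-lived RNA a smaller part. Reads from a gene and from its antisense partner can be told apart only when strand is kept in counting.

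The deposited table gives no coordinates and no sequences of the units, so the sequences shown are those of ORFs across from units on which the results turn. Each is the first 60 coding bases in genome build R64, from RefSeq, 5′ to 3′, with every T in capitals, because T is U in the RNA and is where 4tU can enter. For FBA1 and YGK1 the other strand of the same bases is given too, since that is the strand an antisense transcript would carry there. It is not known whether the unit covers these bases.
FBA1 (across from Unit228, chrXI:327428-327487, minus strand): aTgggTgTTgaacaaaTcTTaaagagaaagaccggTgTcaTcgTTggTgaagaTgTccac
FBA1 other strand (chrXI:327428-327487, plus strand): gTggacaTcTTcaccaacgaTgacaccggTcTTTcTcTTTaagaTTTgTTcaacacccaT
TMA19 (across from Unit229, chrXI:334856-334915, minus strand): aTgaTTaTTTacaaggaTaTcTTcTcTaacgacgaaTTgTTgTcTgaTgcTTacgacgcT
RER2 (across from Unit10, chrII:242509-242568, minus strand): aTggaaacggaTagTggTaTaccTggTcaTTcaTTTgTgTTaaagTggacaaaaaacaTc
YGK1 (across from Unit122, chrVII:312193-312252, plus strand): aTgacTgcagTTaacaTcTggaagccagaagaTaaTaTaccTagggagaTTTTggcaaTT
YGK1 other strand (chrVII:312193-312252, minus strand): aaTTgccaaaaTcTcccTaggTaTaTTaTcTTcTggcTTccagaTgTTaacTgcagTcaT
The first 60 coding bases of FBA1 hold 15 T on the coding strand and 19 on the other strand, and those of YGK1 hold 16 and 21. Over the whole coding sequence T made up 26.0% of FBA1, 28.2% of TMA19, 26.5% of RER2 and 27.5% of YGK1. On the other strand, which an antisense transcript would carry, T made up 28.8% for FBA1, 28.8% for TMA19, 31.4% for RER2 and 35.5% for YGK1. Unit228 and Unit229 fell in labelled RNA, and Unit10, and Unit122 at 5 min, rose. Whether T content bears on these directions was not tested.

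The 14 libraries held between 3618310 and 65173280 counts in all, the lowest and the highest both being total RNA. The share of counts in rRNA was 51.2% and 55.4% in the label-free libraries and between 2.34% and 28.7% in the others. Factors from TMM scaling, which removes the effect of a few dominant RNAs, ran from 0.245 to 2.04, so that values in CPM (counts scaled to library size) below are TMM-scaled and depend on that choice. Of the 402 units, 374 to 402 had at least 1 count in a library. The total RNA library of timecourse 3 stood apart, with 28 units at 0 against 10 and 0 in the other total RNA libraries. It had 2.65% of its counts outside rRNA in units, against 5.83% and 7.31%, and 33.6% in snoRNAs, against 20.8% and 20.4%. Mating-type markers matched the genotype in sum, though not each by itself. The 7 MATa genes summed to between 469 and 988 CPM per library and 4 genes of the other mating type to between 18.7 and 74.0 CPM. Of the MATa genes, AGA2 had 0 to 47.2 CPM, with 0 in 1 library, and ASG7 had 4.10 to 29.6 CPM. Of the genes of the other mating type, SAG1 had 12.5 to 56.5 CPM, and MF(ALPHA)1 was at 0 in 3 libraries.

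The units were long compared with other noncoding classes. Their length, recovered from the ratio of deposited counts to deposited RPKM values (reads scaled by feature length and library depth), ran from 193 to 6047 nt, with a median of 1089 nt and quartiles of 751 and 1715.75 nt. Median lengths were 227 nt for CUTs, 753 nt for SUTs, 661 nt for XUTs and 1320 nt for protein-coding features. Read from their place in the table, which runs by chromosome, strand and start, units lay on all 16 chromosomes, from 4 on chromosome I to 49 on chromosome IV. There were 217 units among features of the Watson strand (W) and 185 among those of the Crick strand (C).

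Per length, the units were also more abundant. Their mean RPKM over the 12 labelled and total RNA libraries had a median of 28.1 and quartiles of 13.5 and 61.0, against medians of 9.76 for CUTs, 14.1 for SUTs, 13.7 for XUTs and 15.9 for protein-coding features. The range was wide, from 0.691 to 10962.5 RPKM. Reads were spread unevenly, since the unit with most took 13.2% of the counts of all units, the first 8 took 44.6%, and 147 units held 90% of them.

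Of the 8 units with the highest mean CPM per library total, 4 lay across from genes of glycolysis or fermentation and 2 across from cell wall protein genes. Unit261, with the highest mean RPKM (10962.5), lay across from CCW12 (chrXII:369697-370098, minus strand), which encodes a cell wall mannoprotein. The unit's recovered length was 434 nt and the coding sequence of CCW12 is 402 nt long. Unit253 faced PDC1 (pyruvate decarboxylase), Unit35 faced PGK1 (phosphoglycerate kinase), Unit4 faced CDC19 (pyruvate kinase) and Unit228 faced FBA1 (aldolase). Unit58 faced SED1, another cell wall protein gene, Unit398 faced MEP3, an ammonium permease gene, and Unit87 faced API2. The rank of Unit398 leaned on label-free library 2, since its mean was 1113 CPM per library total with it and 964 without it, and on the TMM scale 1164 and 748 CPM. By RPKM, Unit224 across from CWP2 (a cell wall mannoprotein), Unit363 across from RPS28A and Unit264 across from RPS31 (both ribosomal protein genes) and Unit88, listed on the strand of API2, joined them. Mean RPKM was 1976 for Unit35, 1843 for Unit88, 1759 for Unit363, 1620 for Unit224, 1515 for Unit253, 1405 for Unit264 and 1320 for Unit87.

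The value of Unit261 in total RNA was 23750, 23350 and 2404 CPM in timecourses 1 to 3, and in the label-free libraries it was 22010 and 7341 CPM. At 1.5 min it was 3013, 2053 and 931 CPM, at 2.5 min 3495, 2534 and 1060 CPM, and at 5 min 3170, 3916 and 1664 CPM. CCW12 itself had 23830, 23590 and 2457 CPM in total RNA and 3021, 2061 and 945.5 CPM at 1.5 min. The unit thus followed CCW12 up and down through every library, including the drop in the total RNA of timecourse 3, and held nearly the same number of reads.

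This likeness was measured for each unit against the ORFs near its place in the table, by the standard deviation (SD) over 14 libraries of the log2 ratio of unit count to ORF count. An SD under 0.1 was called a close match. Coordinates of ORFs are those of R64. Within the limit lay 101 units for an ORF on the opposite strand, each with a different ORF, and 6 units for an ORF on their own listed strand. The closest ORF was on the opposite strand for 357 units and on the same strand for 41. The median SD to the closest ORF was 0.217 for the opposite strand and 0.860 for the same strand, with a median of 5 and 4 candidate ORFs. Below an SD of 0.3 were 253 units for the opposite strand and 17 for the same strand.

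**Figure D1:**
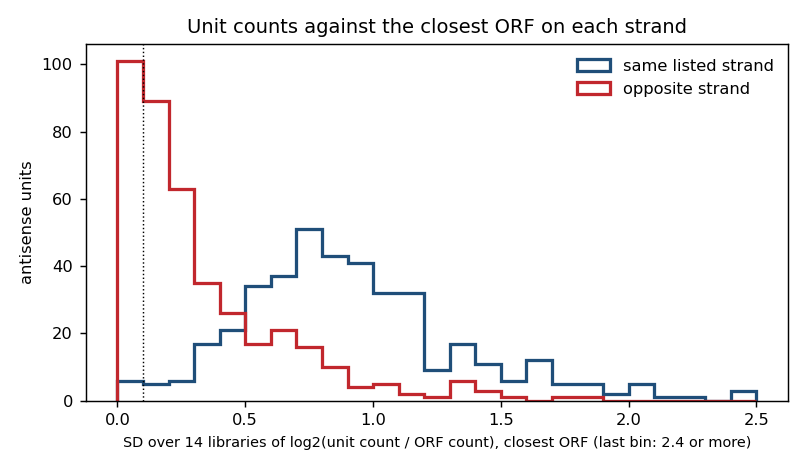
Number of antisense units (vertical axis, 402 in all) by the SD over 14 libraries of the log2 ratio of unit count to the count of the closest ORF (horizontal axis), for ORFs on the opposite strand (red) and on the same listed strand (blue). The dotted line is the close-match limit of 0.1, below which lie 101 units for the opposite strand and 6 for the same strand, and the last bin collects larger values.

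In the close matches the number of reads was nearly equal as well. The unit's count was a median of 0.988 of the ORF's count, with quartiles of 0.958 and 1.01, and in 97 of 101 matches it was at least 90% of it. Per nucleotide the ratio of unit to ORF had a median of 1.09 and quartiles of 1.01 and 1.19. Another 21 units were within the limit of the sum of 2 ORFs, and 99 units were within it of a CUT, SUT or XUT listed nearby, among them units that also matched an ORF. Counting single ORFs and listed noncoding transcripts together, 164 units had a close match, and 225 had none to these or to a sum of 2 ORFs. Where counts are low, this SD also holds counting error. The total RNA of timecourse 1 had a median of 40.5 counts per unit, and that of timecourse 3 had 28 units at 0. How far this bears on the units without a match was not tested.

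Unit122 and YGK1 were the closest of the pairs described here, with an SD of 0.00154. Unit122 had 43.0, 54.6 and 50.1 CPM at 1.5 min and YGK1 43.2, 54.6 and 50.1 CPM. At 5 min both had 69.2, 109.3 and 99.8 CPM. Unit228 and FBA1 had an SD of 0.00606, Unit261 and CCW12 0.0145, Unit30 and ILV6 (the regulatory subunit of acetolactate synthase) 0.0161, Unit4 and CDC19 0.0249, and Unit10 and RER2 (a cis-prenyltransferase of dolichol synthesis) 0.0343. Other units departed from the ORF across from them in at least some libraries. Unit166, across from NDT80, a transcription factor gene of meiosis, had an SD of 0.943. In the total RNA of timecourse 3 it had 13 counts against 177 for NDT80. In the total RNA of timecourse 1 the counts were 55 and 58. At 1.5 min they were 994, 3193 and 4961 against 1108, 3452 and 5532. Unit360, across from RGS2, a regulator of glucose-sensing G protein signalling, had an SD of 0.465.

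**Figure D2:**
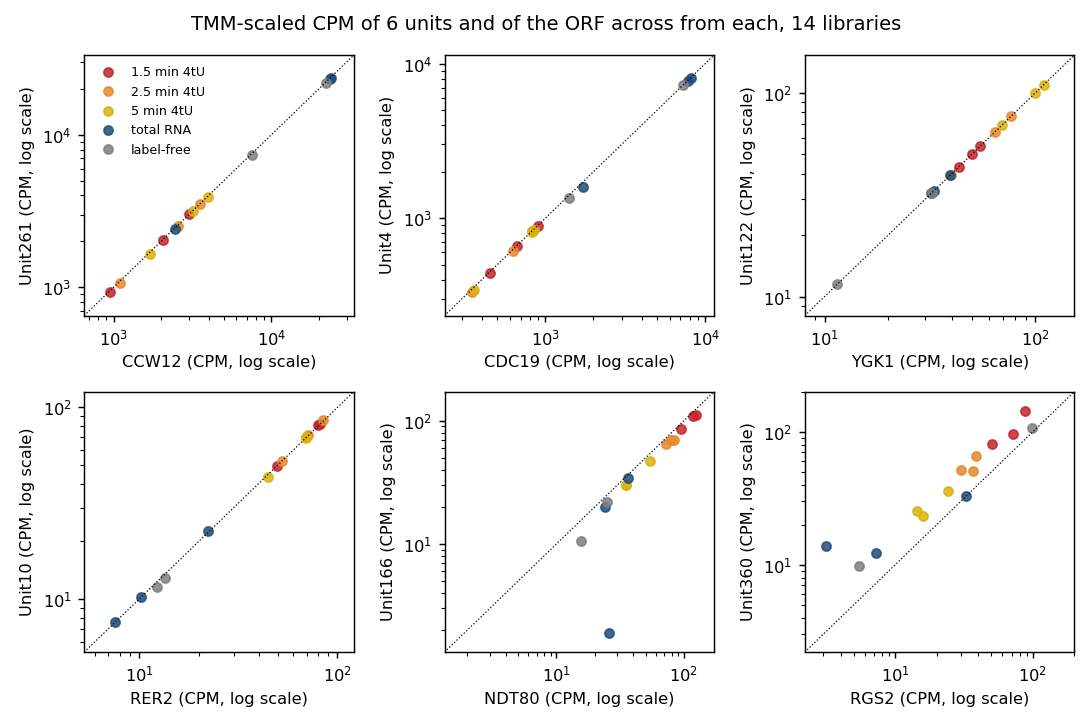
TMM-scaled CPM of 6 units (vertical axes, log scale) against the ORF across from each (horizontal axes, log scale), 1 point per library and 14 per panel, coloured by group; the dotted line marks equal values. Unit261, Unit4, Unit122 and Unit10 lie on or close to the line in every library. Unit166 lies below it in every library, furthest in the total RNA of timecourse 3 (1.89 against 25.8 CPM), and Unit360 lies above it in every library.

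Identical counts were searched for only among features with at least 5 counts in every library. There, no unit had counts identical to those of another feature. Among the other features, 56 groups shared identical counts in all 14 libraries, 53 of them pairs of ORFs on opposite strands and none on 1 strand. Members of all 53 pairs also had equal recovered lengths, as did CDC19 and YAL037C-B, both at 1866 nt. Whether the table lists 1 merged interval under 2 names there, or counts reads of both strands, cannot be told apart from these values. For the units, the sources used here do not give how counting treated strand. Reads of a unit and of the ORF across from it therefore cannot be told apart in the close matches.

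At 1.5 min of labelling, 20 units were higher and 70 lower than in total RNA (edgeR quasi-likelihood test, adjusted p under 0.05 over 11513 features). Among all features tested 6.71% were called higher and 11.4% lower, and among the 402 units 4.98% and 17.4%. The median log2 difference was -0.20 for the units and 0.03 for all features. These directions hold with TMM scaling. With TMM factors from protein-coding features alone the split was 29 higher and 52 lower. It was 242 higher and 4 lower when only library size was scaled for. Over all features the split was 1015 and 1001 with protein-coding factors, and 6587 and 90 by library size. Under that last scaling the median was 1.79 for the units and 1.97 for all features, and with protein-coding factors 0.04 and 0.26. In each of these scalings the median of the units was below that of all features. The main fit holds the group only and does not pair libraries by timecourse. With the timecourse as a block 29 units were higher and 79 lower, beside 1075 and 1687 over all features. In bulk cultures, fewer cells making an RNA and less of it per cell cannot be told apart.

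The number of calls depended on the libraries in the fit, for units and for all features. Leaving out a timecourse takes 1 library from each group. With timecourse 2 left out edgeR called 0 units (89 at an unadjusted p under 0.05) and 0 of 11433 features. With timecourse 1 left out 1 unit was higher and 14 lower, beside 27 and 275 of 11687 features. Without any 1 of the 1.5 min libraries 42 to 50 units were called in place of 90. Over all features these fits called 308 to 392 higher and 752 to 805 lower, in place of 773 and 1311. Without the whole of timecourse 3 the count was 156, and without its total RNA library alone 58 were higher and 104 lower. Over all features those fits called 1450 higher and 1868 lower, and 1740 higher and 2042 lower. Without the total RNA library of timecourse 1 alone 82 units were called (618 higher and 1425 lower over all features). Without that of timecourse 2 alone 104 units were called (1705 and 1538 over all features). Labelled and total RNA values did not overlap in 153 of 402 units (38.1%), beside 37.7% of all features tested, and all 20 higher and 57 of the 70 lower units were among them.

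The units that rose most were of low to middle abundance. Unit42, across from YDL186W (chrIV:125616-126449, plus strand), had 44.8, 63.5 and 38.5 CPM at 1.5 min and 10.1, 7.77 and 1.31 CPM in total RNA. The groups did not overlap, and the total RNA of timecourse 3 was the lowest value. Its log2 difference was 2.99 ± 0.58 (SE, n = 3 and 3, adjusted p = 0.00494), and it kept its call with each library left out in turn. YDL186W had a log2 difference of 3.02 in the same fit.

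Unit360, across from RGS2 (chrXV:521353-522282, plus strand), had 143, 96.4 and 81.0 CPM at 1.5 min and 13.8, 12.2 and 33.0 CPM in total RNA. The 3 labelled values lay above all total RNA values, although label-free library 2 (105.8 CPM) reached the labelled level and label-free library 1 (9.76 CPM) did not. The log2 difference from total RNA was 2.43 ± 0.42 (adjusted p = 0.00251), also kept with each library left out. RGS2 differed by 2.26 on the log2 scale.

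Unit140 lay across from PTI1 (chrVII:800546-801823, plus strand), whose protein acts in mRNA 3′ end processing. It had 176, 108 and 86.9 CPM at 1.5 min and 36.5, 22.6 and 3.06 CPM in total RNA, without overlap. The log2 difference was 2.60 ± 0.72 (adjusted p = 0.0272), but the call was lost without the labelled library of timecourse 1 or 2, with an adjusted p of up to 0.0931.

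Unit166 had 85.3, 109.8 and 110.5 CPM at 1.5 min and 34.6, 20.1 and 1.89 CPM in total RNA, a log2 difference of 2.47 ± 0.70 (adjusted p = 0.0299). NDT80 (chrVIII:356561-358444, plus strand), which is normally kept off outside meiosis, had 25.8 CPM in the total RNA of timecourse 3 where Unit166 had 1.89, so there the unit and the ORF parted. The call for Unit166 was lost without any 1 of the labelled libraries and without the total RNA of timecourse 2, with an adjusted p of up to 0.0768.

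The remaining units of the 8 highest were near the floor of total RNA. Unit316 across from MER1, a gene of meiotic splicing, had 23.3, 21.3 and 27.3 CPM at 1.5 min and 3.77, 5.09 and 0 CPM in total RNA (log2 difference 3.01 ± 0.89). Unit62 across from UPS3, which encodes a protein of the mitochondrial intermembrane space, had 23.6, 16.5 and 22.5 CPM against 3.77, 5.48 and 0.146 CPM (2.72 ± 0.79). Unit148, with no close match, had 11.2, 9.49 and 13.8 CPM against 0.629, 3.12 and 0.291 CPM (2.88 ± 0.71). All 3 passed the test, with adjusted p-values of 0.0360, 0.0340 and 0.0163. The calls for Unit316 and Unit62 were each lost in 4 of 6 leave-outs, with an adjusted p of up to 0.0936 and 0.0935, and that for Unit148 was lost without the labelled library of timecourse 3 (0.0555).

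Unit156 had raw counts of 83, 133 and 136 at 1.5 min and of 0, 29 and 0 in total RNA, and it was at 0 in both label-free libraries. Its log2 difference from total RNA was 3.62 ± 0.96 (adjusted p = 0.0231), lost without the labelled library of timecourse 1 or 2 (up to 0.0788). Against the label-free floor of 3 counts over the group, or 0.194 CPM, a bound that covers counting error only, its mean was at least 25.3-fold higher at 1.5 min, 17.1-fold at 2.5 min and 18.8-fold at 5 min. Its 341 nt had no close match, and the closest candidate was SUT154 with an SD of 0.888.

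Among the units that fell most, Unit229 faced TMA19, which encodes a ribosome-associated protein, and had 171, 133 and 138 CPM at 1.5 min against 1779, 1553 and 2801 CPM in total RNA. The groups lay far apart in every timecourse. The log2 difference was -3.80 ± 0.36 (adjusted p = 0.000402), kept with each library left out, and TMA19 differed by -3.84. By library size alone the difference was still negative, at -1.74.

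Unit228 had 486, 497.5 and 439.9 CPM at 1.5 min and 5495, 5444 and 1659 CPM in total RNA. The total RNA of timecourse 3 was the lowest of its group and yet above every labelled value. The log2 difference was -3.15 ± 0.47 (adjusted p = 0.00135), and for FBA1 it was also -3.15. By library size alone it was -1.28, past the threshold no longer (adjusted p = 0.0638).

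Unit4, across from CDC19 (chrI:71786-73288, plus strand), had 891, 657 and 439 CPM at 1.5 min and 7757, 8021 and 1596 CPM in total RNA. Its log2 difference was -3.13 ± 0.66 (adjusted p = 0.00798) and that of CDC19 was -3.13. Scaled by library size alone it was -1.31 with an adjusted p of 0.123.

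Unit152 faced RPS20, a ribosomal protein gene, and had 17.2, 19.7 and 28.5 CPM against 194, 189 and 234 CPM. Total RNA values lay close together here, in timecourse 3 too. The log2 difference was -3.24 ± 0.34 (adjusted p = 0.000402), and for RPS20 -3.64. The unit's counts departed from those of RPS20 more than in the pairs above, with an SD of 0.356.

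Unit310, across from TOS6, had 16.0, 14.4 and 13.3 CPM at 1.5 min and 119.5, 354 and 152 CPM in total RNA (log2 difference -3.84 ± 0.45, adjusted p = 0.000443). Unit224 had 285, 219 and 138 CPM against 2636, 3459 and 1043 CPM (-3.48 ± 0.55, adjusted p = 0.00169). CWP2 across from it has the same count as YKL096C-B, an ORF of the other strand, in every library. Unit87 had 405, 349 and 434 CPM against 2939, 2751 and 3110 CPM (-2.89 ± 0.37, adjusted p = 0.000571). These units kept their calls with each library left out. Scaled for library size alone, the 8 named lower units at 1.5 min lay between -2.20 and -0.90, and 4 of 8 kept the call, while Unit381, Unit228, Unit4 and Unit87 (adjusted p = 0.0566) lost it.

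Unit381, across from PRM3, a karyogamy gene, shows how far a single library can carry a call. It had 0.686, 0.447 and 0.758 CPM at 1.5 min and 1.26, 0.779 and 43.7 CPM in total RNA. The log2 difference of -4.61 ± 1.36 (adjusted p = 0.0364) rested on the total RNA of timecourse 3, since the adjusted p was 0.651 without it. Fitting the timecourse as a block also ended the call, with an adjusted p of 0.0877.

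**Figure D3:**
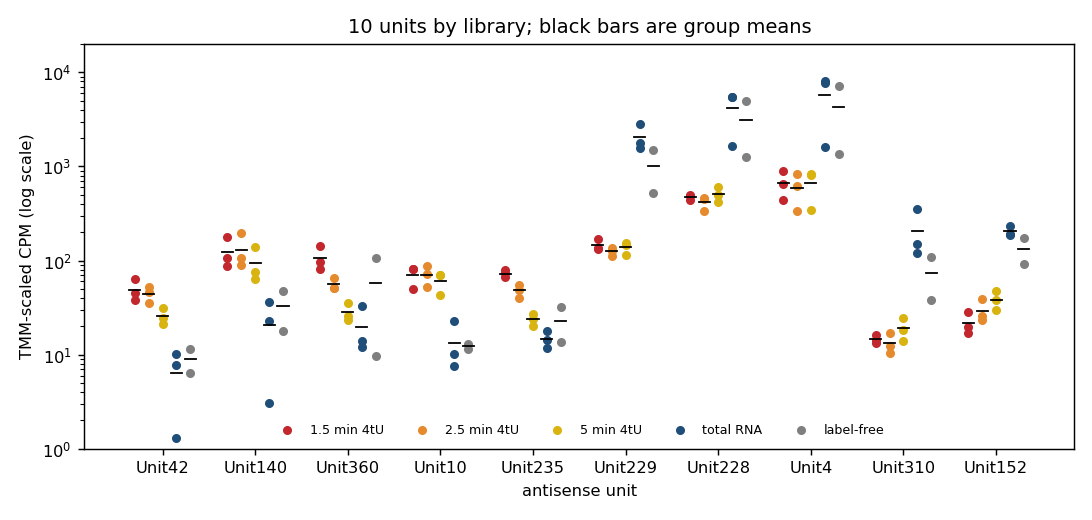
TMM-scaled CPM (vertical axis, log scale) of 10 antisense units, 1 point per library, coloured by group, with black bars at the group means. Unit42, Unit140, Unit360, Unit10 and Unit235 are higher in the 1.5 min libraries than in total RNA, and Unit229, Unit228, Unit4, Unit310 and Unit152 are lower.

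At 2.5 min, 15 units were higher and 62 lower than in total RNA, where 4.86% of all features tested were called higher and 10.2% lower. The median log2 difference was -0.19 for the units and 0.11 for all features. With protein-coding factors the split was 20 and 47, and by library size alone 245 and 5. Over all features these splits were 713 and 942, and 6801 and 73. With the timecourse as a block 24 units were higher and 77 lower (859 and 1574 over all features). At 5 min, 10 units were higher and 47 lower, against 3.26% and 8.47% of all features, with medians of -0.27 and 0.13. That split was 206 and 3 by library size alone, and 6046 and 65 over all features. With the timecourse as a block, 18 units were higher and 73 lower at 5 min, 91 calls in place of 57. Over all features the block gave 634 higher and 1388 lower at 5 min, in place of 375 and 975. The 3 labelled times share the same total RNA libraries, so their lists of calls are not independent of each other.

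Calls at these later times also depended on the libraries in the fit. With timecourse 2 left out edgeR called 0 units (84 at 2.5 min and 68 at 5 min with an unadjusted p under 0.05). It then called 0 of 11433 features at either time. Without timecourse 1, 7 units were called at 2.5 min and 0 at 5 min (77 unadjusted). Over all features 6 were then higher and 138 lower at 2.5 min, and 0 were called at 5 min. Without any 1 of the labelled libraries of the time in question, 34 to 43 units were called at 2.5 min and 22 to 27 at 5 min. Over all features 178 to 261 were then higher and 642 to 740 lower at 2.5 min. At 5 min these ranges were 82 to 127 and 463 to 538. Without timecourse 3 the counts were 127 and 99, and without its total RNA library alone 46 units were higher and 99 lower at 2.5 min, and 39 and 95 at 5 min. In the main fits, groups did not overlap in 148 units (36.8%) at 2.5 min and 130 (32.3%) at 5 min, beside 36.2% and 33.1% of all features. These included 15 of 15 higher and 50 of 62 lower units at 2.5 min, and 10 of 10 higher and 44 of 47 lower units at 5 min.

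Unit10 was called higher at all 3 times. It had 82.0, 81.0 and 49.4 CPM at 1.5 min, 71.8, 86.5 and 52.7 CPM at 2.5 min and 69.4, 70.2 and 43.4 CPM at 5 min. In total RNA it had 7.55, 22.6 and 10.2 CPM and in the label-free libraries 12.9 and 11.5 CPM. No labelled value overlapped with either of the other groups. The log2 difference from total RNA was 2.36 at 1.5 min, 2.35 ± 0.43 at 2.5 min (adjusted p = 0.00460) and 2.14 ± 0.43 at 5 min (adjusted p = 0.00867), and for RER2 it was 2.36, 2.35 and 2.16.

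Unit42 was also called higher throughout, with 51.9, 46.4 and 35.2 CPM at 2.5 min and 31.0, 21.1 and 24.7 CPM at 5 min. Its log2 difference was 2.86 ± 0.58 at 2.5 min (adjusted p = 0.00736) and 2.06 ± 0.56 at 5 min (adjusted p = 0.0355). The 5 min call was lost without any 1 of the 5 min libraries (adjusted p up to 0.122).

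Unit235, across from FPT1, had 73.1, 66.9 and 78.4 CPM at 1.5 min, 48.8, 40.5 and 55.4 CPM at 2.5 min and 27.1, 20.4 and 23.9 CPM at 5 min. Total RNA had 14.5, 11.7 and 17.8 CPM. The labelled values of the 3 times did not overlap with each other or with total RNA. The log2 difference from total RNA was 2.32 at 1.5 min (adjusted p = 0.000470), 1.72 ± 0.27 at 2.5 min (adjusted p = 0.00203) and 0.70 at 5 min, where it did not pass (adjusted p = 0.109).

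Unit122 and Unit382 passed the test at 5 min and not at the earlier times. Unit122 had 69.2, 109.3 and 99.8 CPM against 32.1, 39.4 and 33.0 CPM in total RNA (log2 difference 1.41 ± 0.31, adjusted p = 0.0127). At 1.5 min its difference was 0.49 (adjusted p = 0.258). Unit382, across from COA2, which acts in cytochrome c oxidase assembly, had 78.4, 112 and 166 CPM at 5 min against 24.5, 37.3 and 60.2 CPM (1.54 ± 0.43, adjusted p = 0.0407). Both calls were lost in some leave-outs, with an adjusted p of up to 0.0559 for Unit122 and 0.149 for Unit382. The difference between 5 and 1.5 min did not pass for either, with an adjusted p of 0.573 for Unit122 and 0.896 for Unit382.

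Others among the 8 highest at 2.5 or 5 min were Unit33 across from DFP3, Unit233 across from PRI2 (a DNA primase subunit) and Unit355 across from EXO1 (an exonuclease of DNA repair). Unit33 had 24.7, 20.5 and 23.6 CPM at 2.5 min against 4.40, 4.34 and 11.4 CPM in total RNA. Unit233 had 60.4, 49.8 and 50.9 CPM at 5 min against 23.3, 22.9 and 12.8 CPM. Unit355 had 17.4, 17.4 and 25.7 CPM at 5 min against 6.92, 9.51 and 7.71 CPM. In each the 3 labelled values were above total RNA, with log2 differences of 1.75 ± 0.41, 1.45 ± 0.35 and 1.31 ± 0.31. All 3 calls were lost in 2 or 3 of 6 leave-outs, with an adjusted p of up to 0.0525, 0.0799 and 0.0919.

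Units 62, 140, 148 and 156 remained past the threshold at 2.5 min, with log2 differences of 2.54, 2.68, 2.30 and 3.06. Each lost its call in 3 or 4 of 6 leave-outs, and Unit62 also under the timecourse block (adjusted p = 0.0598). At 5 min Unit156 passed with 3.19 ± 0.95 (adjusted p = 0.0499), lost in 4 of 6 leave-outs.

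Of the units that fell, Unit229, Unit310, Unit224, Unit228 and Unit4 were among the 8 lowest at all 3 times. At 5 min Unit229 had 154, 147 and 115 CPM, a log2 difference of -3.89 ± 0.36, and at 2.5 min its difference was -4.02 ± 0.36. Unit228 differed by -3.33 and -3.06 and Unit4 by -3.30 and -3.13 at 2.5 and 5 min. The 5 min call for Unit4 was lost without the 5 min library of timecourse 1 or 3 (adjusted p up to 0.0582). Unit381 was again called lower at 5 min (-4.84 ± 1.37), with an adjusted p of 0.525 without the total RNA of timecourse 3 and 0.0854 with the block.

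Unit346, across from PEX11, a gene of peroxisome proliferation, had 16.3, 18.5 and 10.5 CPM at 2.5 min and 118, 116 and 137 CPM in total RNA. The groups were far apart, with a log2 difference of -3.04 ± 0.37 at 2.5 min and -2.76 ± 0.37 at 5 min. These became -1.04 (adjusted p = 0.0542) and -0.96 (adjusted p = 0.0780) by library size alone, which ended both calls. Unit30 had 125, 97.5 and 56.5 CPM at 2.5 min and 1223, 1336 and 128.5 CPM in total RNA (-3.27 ± 0.79, adjusted p = 0.0174), and the total RNA of timecourse 3 came close to the labelled level. Unit30 lost its call without the 2.5 min library of timecourse 2 or 3 (up to 0.0795). Under library-size scaling 5 of the 8 named lower units kept their call at 2.5 min, where Unit4, Unit30 and Unit346 lost it. At 5 min 3 of 8 kept it, where Unit4, Unit224, Unit228, Unit346 and Unit381 lost it. All 8 named higher units kept theirs at each time.

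Unit88 was the only named unit whose close match among the ORFs searched was on its own listed strand. It had 309, 271 and 503 CPM at 2.5 min against 2768, 2476 and 2839 CPM (-2.90 ± 0.36). Unit87 on the other strand matched the same ORF, API2. Outside that search, YAL037C-B, a Crick-strand ORF with the same counts as CDC19, matched Unit4 as closely as CDC19 did. Unit98 had 33.4, 33.9 and 21.4 CPM at 5 min and 160, 257 and 177.5 CPM in total RNA (-2.75 ± 0.30, adjusted p = 0.000847). Its closest match was a listed noncoding transcript, SUT092, with an SD of 0.0131, while HMF1 across from it had 0.119.

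Units and the ORFs across from them were called alike in most cases, which is given as a description because their reads may be shared. Of the 20 units higher at 1.5 min, 14 had their closest opposite-strand ORF called higher too, and of the 70 lower units 63 had it called lower. Within the close-match limit these counts were 5 of 6 and 24 of 24. The absolute difference between unit and ORF log2 values had a median of 0.137 over 401 pairs and of 0.0273 within the limit.

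**Figure D4:**
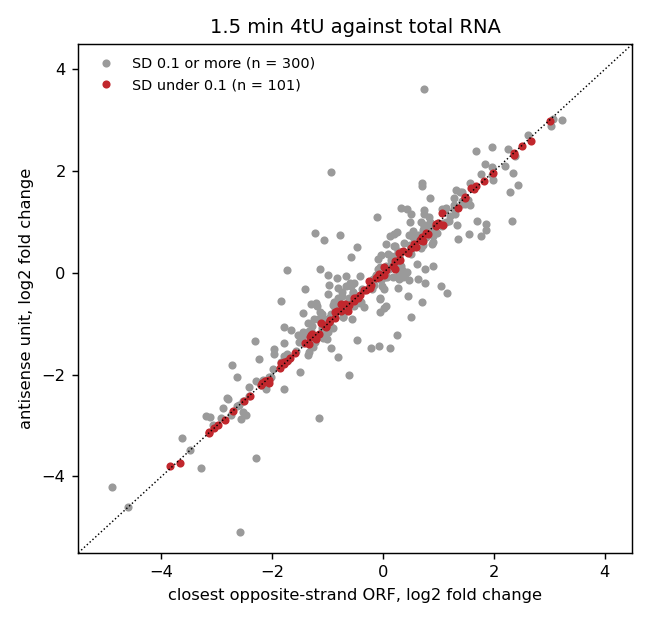
Log2 difference between 1.5 min labelled RNA and total RNA for each antisense unit (vertical axis) and its closest opposite-strand ORF (horizontal axis), with close matches in red (n = 101) and other pairs in grey (n = 300); the dotted line marks equal values. Red points lie on the line, with a median absolute distance of 0.0273, and the largest distance among all pairs is 2.92.

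In their calls at 1.5 min the units stood nearer to protein-coding features than to the other noncoding classes. Protein-coding features were called higher in 3.45% and lower in 14.8% of cases, CUTs in 12.9% and 5.16%, SUTs in 12.3% and 3.54% and XUTs in 11.6% and 5.30%. Median log2 differences at 1.5 min were -0.20 for units and -0.20 for protein-coding features, against 0.78 for CUTs, 0.70 for SUTs and 0.67 for XUTs. At 5 min the medians were -0.27 and -0.03, against 0.72, 0.43 and 0.43. These are descriptions over features that share libraries, and no test was made between classes.

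**Figure D5:**
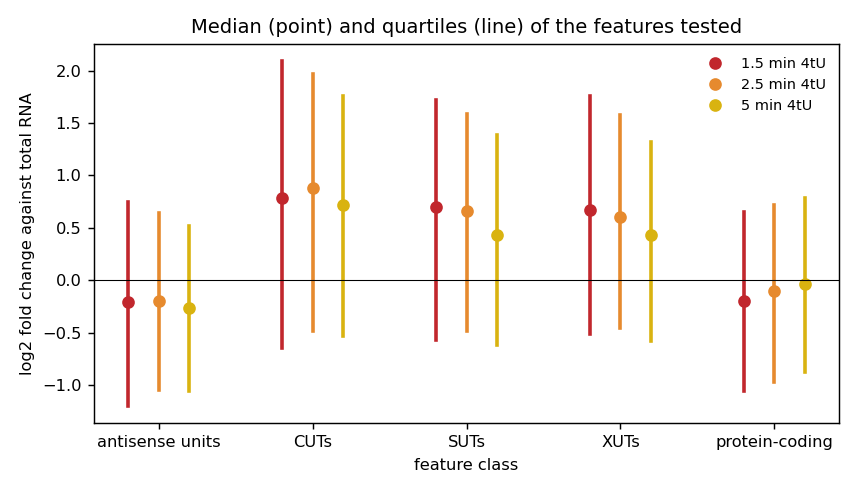
Median (point) and quartiles (line) of the log2 difference from total RNA (vertical axis) over the features tested in each class (horizontal axis), for 1.5, 2.5 and 5 min of labelling. With TMM scaling, units and protein-coding features have medians of -0.20 at 1.5 min, and the medians of CUTs, SUTs and XUTs are above 0 at each time; by library size alone the median of the units at 1.5 min is 1.79.

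Units without a near partner were looked at apart, after their values had been seen. There were 87 units with an SD of 0.3 or more to every ORF and listed noncoding transcript searched. Of these, 8 were higher (9.20%) and 13 lower (14.9%) at 1.5 min, beside 6.71% and 11.4% of all features. At 2.5 min 6 were called in each direction (6.90%), beside 4.86% and 10.2%, and at 5 min 4 (4.60%), beside 3.26% and 8.47%. Some of the 87 nevertheless followed a sum of 2 ORFs, such as Unit385 with PRM4 and TGS1 (SD 0.0580) and Unit255 with NRS1 and IES3 (SD 0.0210). With such sums searched as well, 61 units kept an SD of 0.3 or more throughout, of which 6 were higher (9.84%) and 5 lower (8.20%) at 1.5 min. Those higher were Unit148, Unit151, Unit156, Unit166, Unit276 and Unit355, and those lower were Unit92, Unit168, Unit206, Unit286 and Unit297. Unit166 followed NDT80 in most libraries and parted from it in the total RNA of timecourse 3, with 13 counts against 177. None of the 11 calls held with every library left out. By library size alone the 6 higher calls were kept and the 5 lower ones were not, with values between -0.38 and 1.21. These shares are near those of all features, and no test was made between the groups of units.

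Between 5 and 1.5 min of labelling no unit was called by edgeR, where 0% of all features were called higher and 0% lower. At an unadjusted p under 0.05 stood 48 of 402 units and 754 of 11513 features. DESeq2 called 2 units higher and 4 lower, beside 46 and 58 over all features. With the timecourse as a block the edgeR count stayed at 0. The median log2 difference was -0.06 for the units and 0.05 for all features.

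The smallest p-values among units lower at 5 min belonged to Unit235 and Unit360. The log2 difference was -1.61 ± 0.27 for Unit235 (adjusted p = 0.205). For Unit360, which had 35.6, 23.4 and 25.5 CPM at 5 min against 143, 96.4 and 81.0 CPM at 1.5 min, it was -1.93 ± 0.41 (adjusted p = 0.292). Neither overlapped between the times. Unit276 across from FBP1 (fructose-1,6-bisphosphatase) had 8.99, 8.39 and 5.91 CPM at 5 min against 20.2, 24.4 and 18.0 CPM, and Unit225 across from MBR1 had 16.3, 14.3 and 12.2 CPM against 22.8, 33.6 and 33.2 CPM.

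In the other direction, Unit194 across from RPB4 (a subunit of RNA polymerase II) had 36.7, 48.9 and 34.2 CPM at 5 min against 16.2, 17.7 and 13.1 CPM at 1.5 min. Unit187 across from ELO1 (a fatty acid elongase) had 76.2, 61.2 and 55.0 CPM against 30.0, 34.6 and 37.3 CPM. Unit211 had 37.7, 38.7 and 36.0 CPM against 16.6, 19.2 and 15.4 CPM, and Unit354 had 12.3, 9.52 and 15.6 CPM against 2.83, 4.81 and 3.34 CPM. The groups did not overlap in any of these, yet none passed the adjustment over all features (adjusted p from 0.381 to 0.511). Between these times 35.6% of units and 27.6% of all features did not overlap.

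Against the label-free background, 5 units were higher and 19 lower at 1.5 min, where 1.44% of 11688 features were called higher and 3.35% lower. The split was 8 and 13 with protein-coding factors and 238 and 0 by library size alone. Over all features these splits were 179 and 215, and 6005 and 10. No named call in this comparison held with every library left out. Without any 1 of the 1.5 min libraries edgeR called 0 units (79 to 91 unadjusted), and without timecourse 3 it called 42. Over all features it called at most 1 without a 1.5 min library, and 467 higher and 495 lower without timecourse 3. Without label-free library 1 the median log2 difference was 0.05 for the units and 0.07 for all features. Without label-free library 2 these medians were -0.18 and 0.21. Those fits hold 1 label-free library, which is assumed to vary like the other groups, here and in the label-free comparisons below. The higher units were Unit156, Unit151, Unit10, Unit190 and Unit235.

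Unit151 had 48.4, 47.6 and 40.5 CPM at 1.5 min, 8.56 and 2.05 CPM in the label-free libraries and 2.52, 9.38 and 21.5 CPM in total RNA (log2 difference from label-free 3.09 ± 0.82, adjusted p = 0.0475). It had no close match. Unit190 lay across from ASG7, an a-specific gene of the mating type used, and had 29.1, 27.6 and 21.3 CPM against 9.22 and 4.10 CPM (1.96 ± 0.48, adjusted p = 0.0377). Unit10 differed by 2.53 ± 0.51 (adjusted p = 0.0203) and Unit235 by 1.68 ± 0.41 (adjusted p = 0.0366). None of these 4 overlapped between the groups, as was so for 45.0% of units and 44.6% of all features.

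Among the lower units, Unit224 differed from label-free by -3.30 ± 0.65, Unit229 by -2.77 ± 0.49, Unit228 by -2.71 ± 0.63 and Unit152 by -2.60 ± 0.41. Unit50 across from NPC2 (a sterol transport gene) had 41.0, 45.7 and 33.0 CPM against 403 and 161 CPM. Unit268 across from SEC22 (a vesicle SNARE gene) had 8.84, 7.25 and 11.0 CPM against 32.8 and 94.6 CPM. In both, every labelled value was below both label-free values, and the log2 difference was -2.82 ± 0.58 for Unit50 and -2.82 ± 0.60 for Unit268. Unit200 across from PRY1 (a sterol-binding protein gene) differed by -2.57 ± 0.51 and Unit296 across from NCW1 (a cell wall protein gene) by -2.53 ± 0.67. None of these 8 kept its call by library size alone, where they lay between -0.76 for Unit224 and 0.04 for Unit296 (adjusted p from 0.312 to 0.977), so that their calls rest on TMM scaling.

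At 5 min against label-free, 0 units were higher and 2 lower, where 0.0599% and 0.282% of all features were called. At an unadjusted p under 0.05 stood 98 of 402 units and 2396 of 11688 features. DESeq2 called 13 units higher and 38 lower, beside 556 and 760 over all features. The 2 lower units were Unit98 (-2.38 ± 0.37, adjusted p = 0.0316) and Unit229 (-2.86 ± 0.50, adjusted p = 0.0429), both lost without any 1 of the 5 min libraries, where edgeR called 0 units (72 to 76 unadjusted). Without label-free library 1 the median log2 difference was 0.06 for the units and 0.13 for all features. Without label-free library 2 these medians were -0.31 and 0.28. By library size alone the differences of Unit98 and Unit229 were -0.15 and -0.52. Close to the threshold, each with an adjusted p of 0.0513, were Unit10, Unit122, Unit156 and Unit382 on the higher side. On the lower side with the same adjusted p were Unit293 across from SNO1 and Unit11 across from GAL10, a gene of galactose metabolism.

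Between label-free and total RNA no unit was called by edgeR, where 0% of all features were called in either direction. An unadjusted p under 0.05 was found for 38 of 402 units and 1233 of 11688 features. DESeq2 called 0 units, beside 68 higher and 34 lower over all features. This comparison has 2 label-free libraries. Without label-free library 1 the median log2 difference was -0.51 for the units and -0.22 for all features. Without label-free library 2 it was 0.10 and -0.04. The label-free libraries differed widely in some units. Unit398 had 574 and 6567 CPM there, against 321, 597 and 1296 CPM in total RNA, and MEP3 across from it had 538 and 6549 CPM. Unit226 had 68.6 and 335 CPM against 59.7, 46.3 and 68.5 CPM, and Unit103 across from ICL1 (isocitrate lyase) had 72.2 and 196 CPM against 71.1, 44.0 and 25.2 CPM. Unit295 had 12.6 and 4.10 CPM against 15.7, 15.9 and 99.2 CPM. None of these passed, with an adjusted p of 0.438 for Unit226, Unit103 and Unit295. Others with small p-values were Unit110 and Unit306 on the higher side, at 1.84 ± 0.60 and 1.51 ± 0.50 on the log2 scale, and Unit146, Unit381 and Unit177 on the lower side, at -2.09 ± 0.69, -4.48 ± 1.60 and -1.35 ± 0.48. Each of them had the same adjusted p of 0.438.

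As a whole, the share of counts in units depended on what it was taken of. Of counts outside rRNA they took 5.72% ± 0.369 (SD, n = 3) after 1.5 min, 5.54% ± 0.539 after 2.5 min and 5.15% ± 0.346 after 5 min. Total RNA had 5.26% ± 2.38 (n = 3) and label-free RNA 5.48% ± 0.250 (n = 2). The spread was widest in total RNA, from 2.65% to 7.31%. The difference between 1.5 min and total RNA was 0.454 percentage points (two-sided exact permutation test, p = 0.9), and between 5 min and total RNA it was -0.114 (p = 1, exact). Between 5 and 1.5 min it was -0.568 (p = 0.2, exact). With 3 against 3 libraries the smallest p this test allows is 0.1. Within timecourses 1 to 3 the 5 min share minus the 1.5 min share was -0.425, -0.698 and -0.582 points (exact paired permutation test, p = 0.25, the smallest it allows). The 1.5 min share differed from total RNA by -0.0822, -1.24 and 2.69 points, so timecourse 3 alone went up. Of protein-coding, CUT, SUT, XUT and unit counts alone, units took 6.80% at 1.5 min and 8.48% in total RNA, so the difference turned to -1.68 points (within timecourses -2.01, -3.56 and 0.527). Label-free RNA had 8.63% there, and of all counts with rRNA 2.57% against 4.94% at 1.5 min.

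A list of 41 genes of nuclear and cytoplasmic RNA decay, transcription termination and chromatin was read from the same fit, 40 of them tested. At 1.5 min against total RNA 4 were higher (NMD2, DCP2, SSU72 and HST3) and 4 lower (REB1, SPT16, SPT6 and NAB3), with a median log2 difference of 0.25. That is 10% in each direction, beside 6.71% and 11.4% of all features. The counts were 1 and 2 at 2.5 min (2.5% and 5%, beside 4.86% and 10.2%) and 1 and 0 at 5 min (2.5% and 0%, beside 3.26% and 8.47%), with medians of 0.25 and 0.44. These shares are near or below those of all features. Against label-free RNA, SPT6 was the single gene lower at 1.5 min (2.5%, beside 3.35%) and none was called at 5 min, and none was called between 5 and 1.5 min or between label-free and total RNA. DCP2, the catalytic subunit of mRNA decapping, was higher at each labelled time against total RNA, by 1.13 ± 0.28, 0.99 ± 0.28 and 1.22 ± 0.28 on the log2 scale.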

How the data were processed

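Budding yeast RNA was sequenced in 14 libraries, and the deposited table gives counts per feature for all of them and RPKM values for the labelled and total RNA libraries used here. The counts are the authors' whole-number read counts with no scaling, per the file headers, and RPKM values are the authors', scaled by feature length and library depth. Per the submitters' processing notes, STAR 2.4.2a and genome build R64 were involved, in roles left unstated. No source used here names the counting tool or its strand setting. Library totals and TMM factors set the precision of each value and are given in the text.

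Groups came from sample titles. Replicate columns were read as timecourses 1 to 3, but the label-free columns carry no timecourse number and are called library 1 and 2. The timecourse 3 label-free sample has a source label of depleted total RNA, and the title set its group. Another 2 RPKM columns, of label-free RNA, were not used.

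Counts of all features were fitted with edgeR 4.0.16 in R 4.3.3 (TMM, filterByExpr with a minimum count of 10, quasi-likelihood F test, Benjamini-Hochberg adjustment over all features tested, threshold 0.05). The fit was tested on simulated data. Alternatives were DESeq2 1.42.0, other scalings, no filter, leaving out libraries or timecourses, and the timecourse as a block. Deviations of libraries of the same timecourse correlated over 18 pairs with r from 0.255 to 0.877, against at most 0.0930 for other pairs. The timecourse numbers thus pair the samples, but the main fits hold the group only, without this pairing.

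Units named are, per comparison, up to 8 higher and 8 lower called units without overlap between groups, or, where fewer than 4 passed, the 4 with the smallest p in each direction, and the 8 with the highest mean CPM (per library total) and mean RPKM. The mean RPKM is over 12 libraries, not 14. Other units named were chosen after their values were seen. The likeness of a unit to nearby features used counts with a pseudocount of 0.5. It searched ORFs between and within 3000 bases of the listed neighbours, and noncoding transcripts within 10 entries. Its limits, the placement by table order, the sums of 2 ORFs and the paired test of shares were chosen after seeing the data. Of 5954 neighbouring ORF pairs, 5936 (99.7%) were in increasing start order. The units, lists and rules were chosen with earlier results of these data known.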

Additional observations from a re-analysis of the deposited data

How the results depend on the processing

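By library size alone, 246, 250 and 209 units were called at 1.5, 2.5 and 5 min against total RNA, nearly all higher. Against label-free RNA 238 and 203 were called at 1.5 and 5 min. Over all features this scaling called 6587, 6801 and 6046 higher against total RNA, and 6005 and 5275 against label-free RNA. Unit296 reversed there, to 0.0393 in the comparison of 1.5 min with label-free RNA. With protein-coding factors 1 unit was called at 5 min against label-free RNA, beside 2 higher and 8 lower over all features. DESeq2 called 102 units at 5 min against total RNA, 6 between 5 and 1.5 min, and 67 and 51 at 1.5 and 5 min against label-free RNA. Over all features it called 1227 higher and 1469 lower, 46 and 58, 890 and 928, and 556 and 760, in the same order. The cause was not tested. With the timecourse as a replicate block, 91 units were called at 5 min against total RNA in place of 57, 108 and 101 at 1.5 and 2.5 min, and 0 between 5 and 1.5 min. The paired fit lost Unit381 at 1.5 and 5 min and Unit62 at 2.5 min and changed no other call of a named unit. No paired fit was possible for label-free comparisons because those columns carry no timecourse number. Leaving out a library or timecourse gave 0 to 162 calls at 1.5 min, 0 to 145 at 2.5 min and 0 to 134 at 5 min against total RNA. It gave 0 to 42 and 0 to 24 at 1.5 and 5 min against label-free RNA, and 0 to 18 between label-free and total RNA. Over all features, calls at 1.5 min against total RNA ran from 0 without timecourse 2 to 1740 higher and 2042 lower. The latter were without the total RNA of timecourse 3. Of the named units called at 1.5, 2.5 and 5 min against total RNA, 9, 10 and 7 of 16 kept their call with each library left out. With protein-coding, CUT, SUT, XUT and unit counts as the denominator, the share differed by -1.68 percentage points between 1.5 min and total RNA and by -0.0508 between 5 and 1.5 min. Alternatives to the close-match limit, chosen after seeing the data, gave 58, 190 and 253 units for the opposite strand at limits of 0.05, 0.2 and 0.3, and 11 and 17 for the same strand at 0.2 and 0.3. The total RNA library of timecourse 1 held 183560 counts in units, the fewest of the 14 libraries, and label-free library 2 held 322902, which limits the depth of comparisons with these groups.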
